A study of Mus musculus with 12 samples.

Results

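Expression of 10 genes of the vascular endothelial growth factor (VEGF) system was examined in mouse lung lymphatic endothelial cells (LECs) after cigarette smoke (CS) exposure. The genes were taken by symbol from a list of 3 ligands (Vegfa, Vegfc, Vegfd), 3 receptors (Flt1, Kdr, Flt4), 2 co-receptors (Nrp1, Nrp2) and 2 genes for the processing of VEGF-C (Ccbe1, Adamts3). They were 10 of 52636 genes listed, and 9 of them, all but Adamts3, passed the filter on low counts and were among the 21440 genes tested. In the study, Prox1-EGFP mice, whose LECs carry EGFP under Prox1 regulatory sequence, were exposed to CS or to room air (RA) from 6 weeks of age, for 8 weeks (acute) or for 24 weeks or more (chronic). LECs were sorted from digested lungs as live, lineage- and EPCAM-negative, CD31-positive and EGFP-positive cells, and their RNA was sequenced. The 2 acute RA and 2 acute CS libraries (1 female, F, and 1 male, M, in each) were made from cells pooled from 2 to 5 mice. The 3 chronic RA libraries (F, M1, M2) and the 5 chronic CS libraries (F, M1, M2, M3, M4) came from 1 mouse each. Length of exposure, age and pooling cannot be told apart between the acute and the chronic libraries.

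VEGF receptors are receptor tyrosine kinases. Flt4 encodes VEGFR-3, the receptor of lymphatic endothelium for VEGF-C and VEGF-D, while Kdr encodes VEGFR-2, the main signalling receptor for VEGF-A, and Flt1 encodes VEGFR-1, which binds VEGF-A tightly with weak kinase activity and is best known from blood endothelium and monocytes. Neuropilins bind VEGF ligands beside these receptors, with Nrp2 typical of veins and lymphatics and Nrp1 of arteries. VEGF-C is secreted as a precursor, and the secreted protein CCBE1 brings it together with the protease ADAMTS3, which cuts it to its active form.

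The depth was lowest in chronic CS F, with 18821438 counts in all, and highest in acute RA F, with 56998590. The chronic CS libraries F, M1 and M2 were shallower (at most 22885446) than M3 and M4 (at least 45436986). Levels are given as CPM, for which each library's counts were divided by its TMM-adjusted size. The LEC transcription factor gene Prox1 was present in all 12 libraries, at 1042 to 1262 CPM in acute CS and 1814 to 2476 CPM in the others. The summed level of 7 lymphatic marker genes was 4983 to 7734 CPM in acute CS, below the 11450 to 12730 CPM of acute RA, and one of the 7, Ccl21a, did not exceed 1.06 CPM anywhere. Lyve1, another of the 7, went the other way, at 568.2 and 985.8 CPM in acute CS F and M and 442.5 and 535.7 CPM in acute RA F and M. The summed level of 14 blood endothelial marker genes, none of them a VEGF gene of the list, was 8130 to 9508 CPM in acute CS and 3041 to 4121 CPM in the other 10 libraries. The 6 leukocyte markers summed to 1143 to 1469 CPM in acute CS and to at most 256.1 CPM elsewhere. The 7 alveolar macrophage markers summed to 1805 to 1965 CPM in acute CS and to at most 384.2 CPM elsewhere. In these bulk samples, fewer cells of a type and less RNA per cell cannot be told apart. The 10 alveolar epithelial markers summed to 6716 CPM in acute CS F and to 275.8 CPM in acute CS M, so these libraries stood apart from each other in that list. The 6 lymphoid markers summed to 129.2 to 166.1 CPM in acute CS and to at most 60.06 CPM elsewhere, and the 9 mesenchymal markers to 751 to 1181 CPM in acute CS and to at most 730.7 CPM elsewhere, while the 5 erythroid markers spread from 10.64 to 697.3 CPM between the acute CS libraries.

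In room air, the LEC libraries carried the receptors and the co-receptor of lymphatic endothelium at high levels and the other members at low levels. Levels of different genes were compared as FPKM, the CPM per kilobase of the gene's exons. In acute RA the order was Flt4 (358 ± 39.8 FPKM, SD, n = 2), Kdr (265.5 ± 19.5 FPKM), Nrp2 (150.5 ± 4.88 FPKM), Vegfa (23.5 ± 0.705 FPKM) and Nrp1 (3.72 ± 0.199 FPKM), with no overlap between neighbours in that order. Vegfc (1.77 FPKM), Flt1 (1.38 FPKM) and Vegfd (1.31 FPKM) followed, and the libraries of these 3 genes overlapped. The chronic RA libraries had the same first 5 genes in the same order, from Flt4 at 534.6 ± 21.2 FPKM (SD, n = 3) and Kdr at 293.4 ± 15.9 FPKM to Nrp1 at 4.51 ± 1.38 FPKM. In chronic CS the order of these 5 genes was also the same, while the libraries of Nrp1, Flt1, Vegfc and Vegfd overlapped from each gene to the next.

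The order was different in acute CS. Kdr (202.9 ± 46.3 FPKM, SD, n = 2) and Flt4 (166.9 ± 36.9 FPKM) overlapped, as did Vegfa (67.5 ± 51.1 FPKM), Nrp1 (60.6 ± 32.1 FPKM) and Nrp2 (56.1 ± 10.01 FPKM). Vegfc at 28.8 ± 13.5 FPKM and Flt1 at 20.4 ± 6.50 FPKM overlapped each other, and Vegfd remained low at 2.12 ± 0.964 FPKM.

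**Figure D1:**
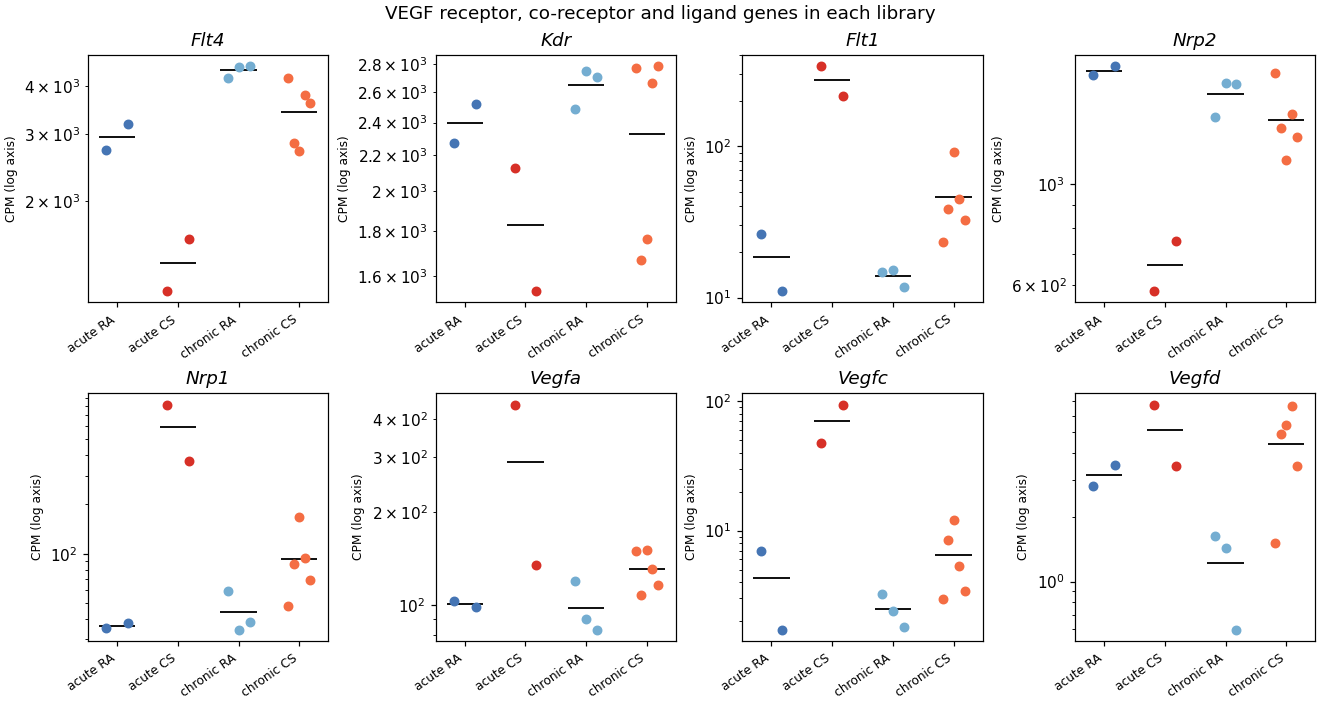
Level in CPM, on log axes that differ between panels, of 8 VEGF genes in each of the 12 libraries (points) by group, with the group mean as a line. The 2 acute CS libraries lie above all others for Flt1, Nrp1 and Vegfc and below all others for Flt4 and Nrp2.

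The first comparison asked which members differed between CS and RA after 8 weeks. Flt1, Nrp1 and Vegfc rose about 15 to 16 times, and Flt4 and Nrp2, the receptor and co-receptor of lymphatic endothelium, fell by factors of 2.15 and 2.68. Thus 5 of the 9 members tested passed the adjusted threshold of 0.05, 3 higher and 2 lower, while 3.47% of all genes tested passed it, 2.75% higher and 0.723% lower. None of the 5 passed with a replicate block (same label within a time point). With 1 library left out, the count of members was 3 without acute CS F, 1 without acute RA F and 0 without acute RA M. It was also 5 without acute CS M, but with Vegfa in place of Vegfc, and 5 without any 1 of the chronic libraries. At an unadjusted p under 0.05 there were 6 members, against 15.7% of all genes. The median log2 fold change was 1.11 over the 8 members other than Ccbe1, which passed the filter through a few CS libraries, and 0.0408 over all genes. Members were tested in a fit over all genes with edgeR's quasi-likelihood test and Benjamini-Hochberg adjustment, and every adjusted p below is from it unless another test is named.

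Among the ligands, Vegfc (ENSMUSG00000031520, chromosome 8, 54077606 to 54187096 of GRCm38, plus strand), the ligand of VEGFR-3, was measured at 6.94 CPM in acute RA F and 1.72 CPM in acute RA M. It was measured at 47.2 CPM in acute CS F and 93.9 CPM in acute CS M. Both CS libraries were far above both RA libraries, although the RA libraries differed from each other by several times. The log2 fold change was 4.02 (SE 0.82, 95% confidence interval 2.23 to 5.82), a 16.2-fold rise with edgeR's adjusted p = 0.0223. Leaving out any of the 4 acute libraries ended the call, with edgeR's adjusted p = 0.0553 without acute CS F, 0.0667 without acute CS M, 0.0658 without acute RA F and 0.186 without acute RA M. The log2 fold change was then between 3.30 and 5.35, and the lone library left in a group was taken to vary like the other groups.

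Vegfa (ENSMUSG00000023951, chromosome 17, 46016993 to 46032369, minus strand), the ligand of VEGFR-1 and VEGFR-2, was at 103 CPM in acute RA F and 98.7 CPM in acute RA M. It was at 444 CPM in acute CS F and 134.5 CPM in acute CS M. Acute CS F alone stood well above the rest, while acute CS M was only slightly above the RA libraries. The log2 fold change of 1.52 (SE 0.42, 95% confidence interval 0.61 to 2.43) did not pass the threshold (edgeR's adjusted p = 0.077). It was 0.42 without acute CS F (edgeR's adjusted p = 0.663) and 2.14 without acute CS M (edgeR's adjusted p = 0.00236), so the value depended on the first of these libraries. DESeq2 called Vegfa with all libraries (adjusted p = 0.00424). The surfactant gene Sftpc, an alveolar epithelial marker, was likewise at 4139 CPM in acute CS F and 127.6 CPM in acute CS M, and its part in the Vegfa value was not tested.

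Vegfd (ENSMUSG00000031380, chromosome X, 164373378 to 164402650, plus strand), the second ligand of VEGFR-3, was low throughout. It was at 2.81 and 3.52 CPM in acute RA F and M and at 6.75 and 3.47 CPM in acute CS F and M. The groups overlapped, with a log2 difference of 0.69 (95% confidence interval -0.82 to 2.21, edgeR's adjusted p = 0.748).

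Among the receptors, Flt1 (ENSMUSG00000029648, chromosome 5, 147561604 to 147726011, minus strand) was at 26.2 CPM in acute RA F and 11.03 CPM in acute RA M. It was at 338 CPM in acute CS F and 214 CPM in acute CS M, both above every other library. Flt1 thus had a log2 fold change of 3.89 (SE 0.62, 95% confidence interval 2.52 to 5.26), a 14.8-fold rise with edgeR's adjusted p = 0.00866. The call was lost without acute RA F (log2 fold change 4.64, edgeR's adjusted p = 0.0511) and without acute RA M (3.34, edgeR's adjusted p = 0.108).

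Flt4 (ENSMUSG00000020357, chromosome 11, 49609263 to 49652739, plus strand) moved the other way. It was at 2716 and 3179 CPM in acute RA F and M, and at 1159 and 1588 CPM in acute CS F and M. The CS libraries were the lowest of all 12. The log2 fold change was -1.10 (SE 0.22, 95% confidence interval -1.58 to -0.62), with the RA mean 2.15 times the CS level in the fit and edgeR's adjusted p = 0.0204. Without acute CS F it was -0.89 (edgeR's adjusted p = 0.167), without acute RA F -1.21 (edgeR's adjusted p = 0.0862) and without acute RA M -1.03 (edgeR's adjusted p = 0.152), so that the call was lost in each case.

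Kdr (ENSMUSG00000062960, chromosome 5, 75932827 to 75978458, minus strand) differed less. It was at 2273 and 2522 CPM in acute RA F and M, and at 2128 and 1536 CPM in acute CS F and M. The CS libraries were both below the RA libraries, acute CS F by little. The log2 difference of -0.39 (SE 0.26, 95% confidence interval -0.96 to 0.18) did not pass the threshold (edgeR's adjusted p = 0.554), and the interval runs from a clear fall to a small rise.

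The co-receptor genes moved in opposite directions. Nrp1 (ENSMUSG00000025810, chromosome 8, 128358604 to 128503363, plus strand) was at 35.04 and 37.8 CPM in acute RA F and M and at 815 and 371 CPM in acute CS F and M. The RA libraries were close together and the CS libraries, though apart from each other, were both at least several times higher. Nrp1 had a log2 fold change of 4.03 (SE 0.57, 95% confidence interval 2.77 to 5.29), a 16.3-fold rise with edgeR's adjusted p = 0.00603. The call was lost without acute RA F (edgeR's adjusted p = 0.0723) and without acute RA M (edgeR's adjusted p = 0.092), while the log2 fold change was 3.97 and 4.03. It was 3.35 without acute CS F, the higher of the CS libraries, and 4.48 without acute CS M, and the call was kept in both cases (edgeR's adjusted p = 0.0297 and 0.00329). The microRNA gene Mir1903 shares 0.818% of the exon bases of Nrp1 on the same strand, and its reads could not be separated there.

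Nrp2 (ENSMUSG00000025969, chromosome 1, 62703285 to 62818695, plus strand) was at 1741 and 1823 CPM in acute RA F and M. It was at 581 and 748.5 CPM in acute CS F and M, the lowest of the 12 libraries. The log2 fold change was -1.42 (SE 0.20, 95% confidence interval -1.86 to -0.98), with the RA mean 2.68 times the CS level and edgeR's adjusted p = 0.0057. Leaving out acute RA M ended this call (log2 fold change -1.44, edgeR's adjusted p = 0.0764).

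The 2 genes for VEGF-C processing had low counts, and in the RA libraries lay around the limit of detection, which was taken as 3 counts per library (0.0507 to 0.1575 CPM, covering counting error only). Ccbe1 (ENSMUSG00000046318, chromosome 18, 66045302 to 66302741, minus strand) had 1 and 4 counts in acute RA F and M, and 79 and 28 counts in acute CS F and M. The counts were higher in both CS libraries, but the gene did not pass the threshold (edgeR's adjusted p = 0.468), and the antisense gene Gm15958 shares 2.95% of its exon bases. Adamts3 (ENSMUSG00000043635, chromosome 5, 89677087 to 89883334, minus strand) had 0 counts in both acute RA libraries and 2 and 10 counts in acute CS F and M. No fold is given for either gene.

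In a fit of the acute groups alone, without the chronic libraries to help estimate the spread, none of the 5 calls passed (edgeR's adjusted p = 0.112 for Vegfc, 0.0681 for Flt1, 0.104 for Flt4, 0.0506 for Nrp1 and 0.0607 for Nrp2). Leaving out Ccbe1, the groups did not overlap for 7 of the 8 members tested, Vegfd being the exception, but with 2 libraries against 2 the groups did not overlap for 49.9% of all genes tested.

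**Figure D2:**
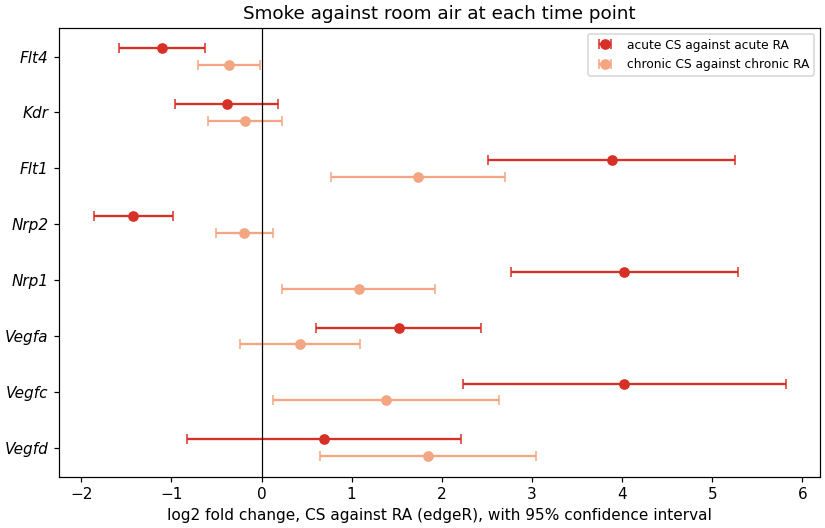
Log2 fold change of CS against RA (x axis, edgeR) with its 95% confidence interval for 8 members, for the acute (red) and the chronic (orange) comparison. The acute intervals of Flt1, Nrp1, Vegfc and Vegfa lie above 0 and those of Flt4 and Nrp2 below 0, and the chronic estimates of all but Vegfd lie nearer to 0.

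The sequence just before the transcription start is shown for 4 of the 5 members that passed in the acute comparison, as context for the genes that moved together or apart. The windows are from RefSeq (GRCm38.p6), in which 9 of the 10 members had an entry. They run 5′ to 3′ on the gene's strand, hold the 250 bases before the start up to the first annotated exon base, and have in capitals each match to TATAAA, TGACGTCA or GGGCGG on either strand, overlapping matches included. Windows with fewer than 200 bases before an annotated exon base were not kept, and none is shown for Flt4. They are chr5:147726012-147726261 (minus strand) for Flt1, chr8:128358823-128359072 (plus strand) for Nrp1, chr8:54077282-54077531 (plus strand) for Vegfc and chr1:62703067-62703284 (plus strand, 218 bases) for Nrp2. The window of Nrp1 lies between annotated exons of that gene, because another annotated transcript starts further upstream.
Flt1: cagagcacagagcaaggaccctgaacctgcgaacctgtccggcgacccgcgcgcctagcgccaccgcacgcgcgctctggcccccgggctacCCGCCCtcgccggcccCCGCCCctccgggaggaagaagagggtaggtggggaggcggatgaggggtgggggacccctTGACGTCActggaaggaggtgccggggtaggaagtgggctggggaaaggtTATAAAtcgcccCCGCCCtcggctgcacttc
Nrp1: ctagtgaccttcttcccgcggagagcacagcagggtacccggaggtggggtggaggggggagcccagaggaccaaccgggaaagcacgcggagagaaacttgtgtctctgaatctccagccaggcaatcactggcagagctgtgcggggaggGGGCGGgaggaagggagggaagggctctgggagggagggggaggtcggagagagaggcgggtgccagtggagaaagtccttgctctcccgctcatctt
Vegfc: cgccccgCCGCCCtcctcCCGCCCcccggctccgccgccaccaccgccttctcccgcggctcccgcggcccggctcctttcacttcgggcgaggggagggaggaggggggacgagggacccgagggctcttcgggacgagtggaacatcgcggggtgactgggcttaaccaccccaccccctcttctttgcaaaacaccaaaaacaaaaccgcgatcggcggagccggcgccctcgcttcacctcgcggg
Nrp2: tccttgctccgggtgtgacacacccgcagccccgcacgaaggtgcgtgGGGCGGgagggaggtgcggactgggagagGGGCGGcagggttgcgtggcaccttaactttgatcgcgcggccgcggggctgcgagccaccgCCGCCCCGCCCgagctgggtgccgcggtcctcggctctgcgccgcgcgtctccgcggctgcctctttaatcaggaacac
Flt1 held 1 TATAAA and 1 TGACGTCA match, which the other 3 windows did not. The GC-box letters GGGCGG were matched 3 times in Flt1, 1 time in Nrp1, 2 times in Vegfc and 4 times in Nrp2, so that the genes that rose and the one that fell all held them. Of all 32851 windows of 250 bases in the same table, 12.4% held TATAAA, 1.55% held TGACGTCA and 32.7% held GGGCGG. These shares are for the length shown for Flt1, Nrp1 and Vegfc, and the window of Nrp2 is shorter. A match is a description of the letters and not a site of binding.

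Flt1, Nrp1 and Vegfc were highest in the 2 libraries in which the blood endothelial markers were also highest. The leukocyte, alveolar macrophage, lymphoid and mesenchymal sums were highest in the same 2 libraries. All 6 leukocyte markers passed the adjusted threshold as higher, with a median log2 fold change of 3.98. The medians were 4.24 over the 7 alveolar macrophage, 3.58 over the 6 lymphoid and 2.23 over the 9 mesenchymal markers, with 1 mesenchymal marker lower by sign. All 14 blood endothelial markers were higher in acute CS by the sign of the log2 fold change, 8 of them past the adjusted threshold, with a median of 2.45. None of the 14 was at 0 in any library. Gpihbp1, a gene of blood capillaries, was at 188.7 and 167.3 CPM in acute RA F and M and at 524.6 and 385.5 CPM in acute CS F and M. It was not among the 8 that passed (edgeR's adjusted p = 0.092). Emcn, another of the 14, overlapped between the groups (log2 fold change 0.32, edgeR's adjusted p = 0.646). Ptprc, which encodes the leukocyte antigen CD45, was at 19.6 to 19.8 CPM in the acute RA libraries and 154 to 285 CPM in the acute CS libraries. Of the 7 lymphatic markers, 6 were lower in acute CS by sign and 1 was higher. Among them 2 passed the adjusted threshold, both as lower, and the median over the 7 was -1.03 on the log2 scale. Prox1, on that list, fell by a factor of 2.05 (adjusted p = 0.00797 from edgeR), against 2.15 for Flt4 and 2.68 for Nrp2. The part of these cell types, lymphatic cells included, in the results for Flt1, Nrp1, Vegfc, Flt4 and Nrp2 was not tested. In chronic CS the blood endothelial sum was 3041 to 4121 CPM, against 3577 to 3637 CPM in chronic RA, with 12 of the 14 markers higher by sign, 8 higher and 1 lower at an unadjusted p under 0.05 and a median log2 fold change of 0.752.

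**Figure D3:**
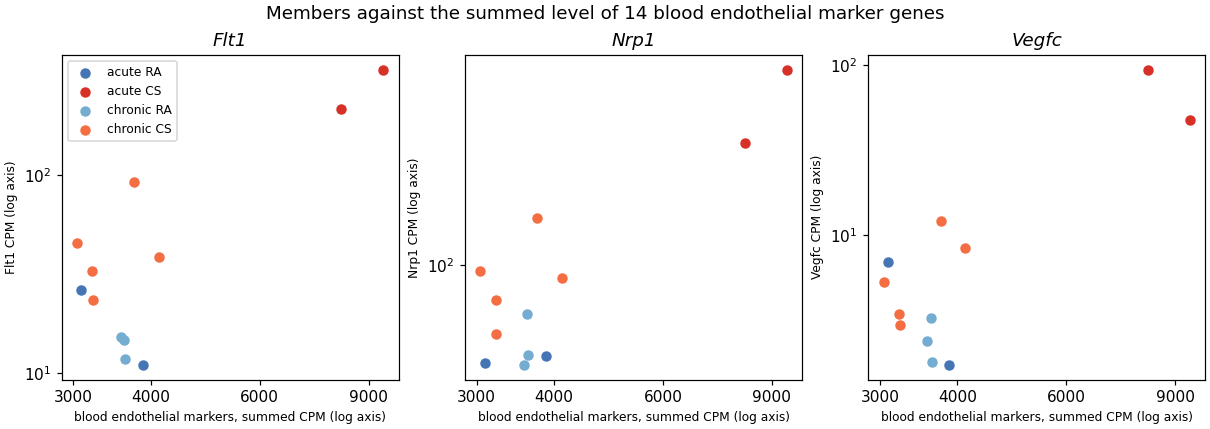
Level in CPM of Flt1, Nrp1 and Vegfc (y axes) against the summed CPM of 14 blood endothelial marker genes (x axes, all on log scales), 1 point per library. The 2 acute CS libraries lie apart at 8130 to 9508 CPM of markers. The sums of the other 10 libraries overlap at 3041 to 4121 CPM, although 12 of the 14 markers had a positive log2 fold change in chronic CS.

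The second comparison asked the same of chronic exposure. No member passed the adjusted threshold in edgeR's quasi-likelihood test, nor did any other gene (0% of 21440). At an unadjusted p under 0.05 there were 5 members (Vegfc, Vegfd, Flt1 and Nrp1 higher, Flt4 lower) of 8, against 10.9% of all genes. Ccbe1 was also under it but is not counted, because it had more than 4 counts only in some CS libraries and passed the filter through them. DESeq2 called 2 members, Flt1 (adjusted p = 0.00246) and Vegfd (adjusted p = 0.0207), both higher. The groups did not overlap for 2 members, Flt1 and Flt4, as for 9.41% of all genes. The median log2 fold change was 0.751 over these 8 members and 0.0144 over all genes. Markers of several other cell types differed between the chronic groups. The alveolar epithelial markers summed to 957.7 to 4807 CPM in chronic CS and 259.4 to 496.3 CPM in chronic RA, with all 10 genes higher by sign and 9 at an unadjusted p under 0.05. The alveolar macrophage markers summed to 66.01 to 384.2 and 23.13 to 105.8 CPM, with 5 of 7 higher at an unadjusted p under 0.05 and a median log2 fold change of 2. The mesenchymal markers summed to 360.6 to 572.3 and 359.4 to 387.3 CPM, with 7 of 9 higher by sign. Of these 9, 6 were higher at an unadjusted p under 0.05, and their median log2 fold change was 1.41. The blood endothelial markers summed to the overlapping ranges given above, with 8 of 14 higher at an unadjusted p under 0.05. Of the 6 lymphoid markers, 2 were higher at that limit but 4 were lower by sign, with a median of -0.789. The 6 leukocyte markers were all higher by sign (median log2 fold change 0.768) and the 5 erythroid markers all lower (median -1.44). The lymphatic markers summed to 11230 and 11620 CPM in chronic CS M1 and M2, the chronic libraries lowest in Flt4 and Kdr, and to 15120 to 16680 CPM in the other 3 chronic CS libraries, within the 14770 to 17120 CPM of chronic RA. Of these 7 markers 4 were higher and 3 lower by sign, none of them at an unadjusted p under 0.05, and their median on the log2 scale was 0.046. Epcam, whose protein the sort selected against, was at 0 to 6.33 CPM in chronic CS and 0.403 to 1.28 CPM in chronic RA. The part of these cell types in the chronic values was not tested.

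Flt1 was at 14.8, 15.2 and 11.8 CPM in chronic RA F, M1 and M2, and at 23.4, 38.5, 91.9, 45.1 and 32.6 CPM in chronic CS F, M1, M2, M3 and M4. All 5 CS libraries were higher than all 3 RA libraries, with chronic CS M2 the highest. Its log2 difference was 1.73 (SE 0.44, 95% confidence interval 0.77 to 2.70, unadjusted p = 0.00225 and adjusted p = 0.261 from edgeR). It was 1.88 with chronic CS F, M1 and M2 only and 1.48 with M3 and M4 only, so the direction was the same in the shallower and the deeper libraries.

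Flt4 was at 4199, 4490 and 4513 CPM in chronic RA F, M1 and M2, and at 4190, 2842, 2698, 3795 and 3619 CPM in chronic CS F, M1, M2, M3 and M4. The groups did not overlap, but chronic CS F was just below the lowest RA library. The log2 difference was -0.36 (SE 0.16, 95% confidence interval -0.70 to -0.02, edgeR's adjusted p = 0.44).

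Nrp1 was at 59.6, 34.4 and 38.3 CPM in chronic RA F, M1 and M2, and at 47.9, 87.0, 166.9, 94.5 and 68.7 CPM in chronic CS F, M1, M2, M3 and M4. Of the CS libraries only F lay within the RA range. The log2 difference was 1.08 (SE 0.39, 95% confidence interval 0.23 to 1.93, edgeR's adjusted p = 0.381).

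Vegfc was at 3.23, 2.39 and 1.79 CPM in chronic RA F, M1 and M2, and at 2.94, 8.41, 12.1, 5.30 and 3.44 CPM in chronic CS F, M1, M2, M3 and M4. The groups overlapped through chronic CS F, and the log2 difference was 1.38 (SE 0.57, 95% confidence interval 0.13 to 2.63, edgeR's adjusted p = 0.427). It was 1.67 with chronic CS F, M1 and M2 only and 0.82 with M3 and M4 only. The second VEGFR-3 ligand, Vegfd, was at 1.63, 1.44 and 0.596 CPM in chronic RA F, M1 and M2, and at 1.52, 4.93, 5.45, 6.63 and 3.48 CPM in chronic CS F, M1, M2, M3 and M4. Again only chronic CS F fell within the RA range. The log2 difference of Vegfd was 1.85 (SE 0.55, 95% confidence interval 0.65 to 3.05, unadjusted p = 0.00602 and adjusted p = 0.321 from edgeR).

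Vegfa, Kdr and Nrp2 overlapped between the chronic groups. Vegfa was at 83.4 to 119.5 CPM in chronic RA and 107.7 to 150.8 CPM in chronic CS, with a log2 difference of 0.43 (95% confidence interval -0.24 to 1.09, edgeR's adjusted p = 0.629). Kdr was at 2486 to 2754 CPM in chronic RA. In chronic CS it was at 2773, 2666 and 2786 CPM in F, M3 and M4 but at 1666 and 1765 CPM in M1 and M2, so that only these 2 lay below the RA range. The log2 difference of Kdr was -0.18 (95% confidence interval -0.60 to 0.23, edgeR's adjusted p = 0.754), and it was 0.04 with M3 and M4 only. Nrp2 was at 1406 to 1674 CPM in chronic RA and 1134 to 1765 CPM in chronic CS, with a log2 difference of -0.19 (95% confidence interval -0.50 to 0.12, edgeR's adjusted p = 0.651).

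The processing genes were detected in some chronic libraries only. Ccbe1 had 0, 0 and 1 counts in chronic RA F, M1 and M2, and 0, 42, 0, 25 and 0 counts in chronic CS F, M1, M2, M3 and M4 (edgeR's adjusted p = 0.452). Adamts3 had 0, 0 and 5 counts in chronic RA F, M1 and M2, and 21, 0, 0, 4 and 0 counts in chronic CS F, M1, M2, M3 and M4. Neither gene was above 3 counts in more than 2 of the 5 chronic CS libraries, and a count of 0 there allows up to 0.1575 CPM.

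Chronic CS M2 was the highest of the 5 in Flt1, Nrp1 and Vegfc and the lowest in Flt4 and Nrp2. Chronic CS F was the lowest in Flt1, Nrp1, Vegfc and Vegfd and the highest in Flt4 and Nrp2. Other members had other orders, with Vegfa nearly as high in F (149.8 CPM) as in M2 (150.8 CPM), Vegfd highest in M3 and Kdr lowest in M1. These are descriptions of libraries from 1 mouse each, chosen after their values were seen. Without chronic CS M2 the log2 difference was 1.33 for Flt1 and 0.76 for Nrp1, and without chronic CS F it was 1.90 and 1.24.

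The difference between the acute and the chronic CS effect was tested in the same fit. No member passed, although 0.452% of all genes did. At an unadjusted p under 0.05 there were 5 members, against 11.9% of all genes. The nearest were the co-receptors. The effect on Nrp2 was lower by 1.23 on the log2 scale in acute exposure (SE 0.24, edgeR's adjusted p = 0.0596), and that on Nrp1 was higher by 2.95 (SE 0.64, edgeR's adjusted p = 0.0798). Flt1 (2.15, edgeR's adjusted p = 0.228), Vegfc (2.64, edgeR's adjusted p = 0.269) and Flt4 (-0.74, edgeR's adjusted p = 0.291) were the other 3. DESeq2 called 3 members in this comparison, Nrp2 (adjusted p = 9.89e-05), Nrp1 (adjusted p = 0.000344) and Flt1 (adjusted p = 0.0427). In edgeR, Nrp1 and Nrp2 passed without acute CS M (adjusted p = 0.0393 for each, with Vegfa at 0.0266) and without chronic CS M2 (adjusted p = 0.0265 and 0.0388). For Kdr the difference was -0.20 with a 95% confidence interval of -0.91 to 0.50.

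Between the RA controls of both time points, no member passed the threshold in edgeR's quasi-likelihood test (0% of all genes) or in DESeq2. At an unadjusted p under 0.05 there was 1 member, Flt4, against 7.01% of all genes. Its level of 4199 to 4513 CPM in chronic RA was above the 2716 and 3179 CPM of acute RA (log2 difference 0.58, SE 0.20, unadjusted p = 0.0141 and adjusted p = 0.607 from edgeR). The RA groups did not overlap for Flt4, Vegfd and Nrp2, as for 34.7% of all genes. Vegfd was lower in chronic RA, at 0.596 to 1.63 CPM against 2.81 and 3.52 CPM (log2 difference -1.37, edgeR's adjusted p = 0.712).

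The balance between members within a library was described by ratios of FPKM. The ratio of Kdr to Flt4 was 0.763 and 0.723 in acute RA F and M and 1.67 and 0.882 in acute CS F and M, so that only acute CS F had more Kdr than Flt4. The exact two-sided permutation test cannot pass the threshold here, since 2 libraries against 2 give no p below 0.333, and no pooled test of the ratio was run. In chronic RA the ratio was 0.54 to 0.559 and in chronic CS 0.535 to 0.702, a mean log2 difference of 0.159 with an exact two-sided permutation p = 0.143, where the smallest possible is 0.0357. The ratio of Nrp1 to Nrp2 was 0.0244 and 0.0251 in acute RA F and M and 1.70 and 0.60 in acute CS F and M. It was 0.0249 to 0.0513 in chronic RA and 0.0328 to 0.178 in chronic CS. The ratio of Flt1 to Flt4 was 0.00589 and 0.00211 in acute RA F and M and 0.178 and 0.082 in acute CS F and M, with Flt1 below Flt4 in every library. Between the VEGFR-3 ligands, Vegfc was 6.87 and 26.6 times Vegfd in acute CS F and M, against 2.43 and 0.481 times in acute RA F and M. It was 1.63 to 2.95 times Vegfd in chronic RA and 0.786 to 2.18 times in chronic CS, and these ranges overlapped. The ratios other than that of Kdr to Flt4 were not tested.

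**Figure D4:**
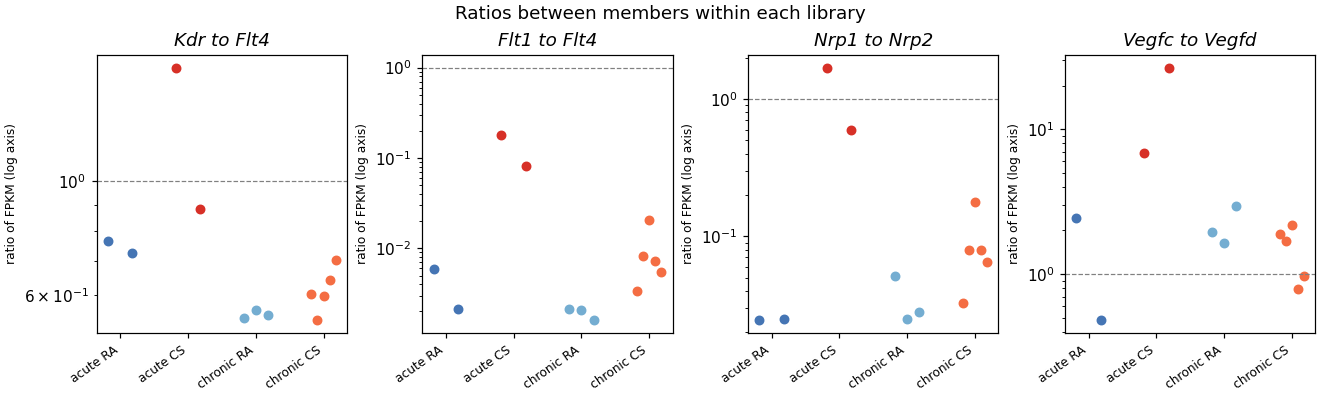
Ratio of FPKM between pairs of members (y axes, log scale, differing between panels) in each library (points) by group, with a dashed line at a ratio of 1. The acute CS libraries have the highest ratios in all 4 panels, and in the panels of Kdr to Flt4 and Nrp1 to Nrp2 only acute CS F lies above 1.

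The genes whose log2 CPM followed a member most closely over the 12 libraries were listed as a description, since the points share the group differences and library composition. For Flt4 they were Mmrn1, a lymphatic marker gene (Pearson r = 0.978), Ltbp4 (0.974), Kctd17 (0.973), Susd2 (0.971) and Pear1 (0.967). For Nrp2 they were Itga9 (r = 0.959), Adam12 (0.955), Sec24d (0.946), Atp8a2 (0.942) and Cdkl1 (0.942). For Flt1 they were Foxf1 (r = 0.988), Pltp (0.984), Tmem100 (0.982), Ly6a (0.975) and Esam (0.975), of which Tmem100 is on the list of blood endothelial markers. Kdr was followed most closely by She (r = 0.936), Lect2 (0.931), Kif3c (0.917), Plcg1 (0.917) and Tnks2 (0.915), with Plcg1 encoding the phospholipase that VEGFR-2 activates, and Lect2 averaging only 0.607 CPM. Vegfd was followed by Ndnf (r = 0.959), Ankrd29 (0.91), Trem1 (0.902), Bmp5 (0.894) and Zbtb16 (0.889).

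Of 71 other genes of the VEGF pathway, 9 rose and 3 fell in acute CS, where 2.75% of all genes rose and 0.723% fell, and their median log2 fold change was 0.00902. All 12 calls were lost in a fit of the acute groups alone, without acute RA F and without acute RA M, and 2 were left without acute CS F. With a chronic library left out, 8 to 12 of them passed, with sex as a covariate 10 and with a replicate block 0. The size of some changes rested on single libraries. Without acute CS F the log2 fold change of Apln was 3.16 in place of 4.33, that of Prkcb 1.94 in place of 3.22, that of Ptprj 2.69 in place of 3.53 and that of Plcg2 1.08 in place of 1.71. Without acute CS M it was 4.97 for Apln and 3.89 for Prkcb, and for Ptprj it was 4.49 without acute RA F and 2.91 without acute RA M. These alternatives were chosen after seeing the data. The blood endothelial, leukocyte and macrophage markers that were higher in acute CS apply to these genes too, Cdh5, Ptprb and Nos3 being endothelial genes and Ptprj being expressed in leukocytes as well, and their part was not tested. Among the 5 other ligands and processing genes none passed. Pgf, which encodes the VEGFR-1 ligand placental growth factor, was close to the threshold at 480.7 to 556.6 CPM in acute RA and 177.3 to 332.6 CPM in acute CS (log2 difference -1.02, edgeR's adjusted p = 0.0547). Vegfb was at 35.3 to 36.5 and 21.3 to 33.0 CPM (edgeR's adjusted p = 0.551). These 2 ligand genes were named after their values were seen.

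Of 16 receptor partners, 3 rose and 2 fell (3.47% of all genes passed in either direction). Itga9, whose integrin subunit is known in lymphatic valves and can bind VEGF-C, fell from 985.1 and 1111 CPM in the acute RA libraries to 274.6 and 424.9 CPM in the acute CS libraries (log2 fold change -1.58, edgeR's adjusted p = 0.00824). Dab2, an endocytic adaptor, fell by 0.79 on the log2 scale (edgeR's adjusted p = 0.00797). The phosphatase genes Ptprb (log2 fold change 1.89, edgeR's adjusted p = 0.00824) and Ptprj (3.53, edgeR's adjusted p = 0.0286) and the endothelial cadherin gene Cdh5 (0.94, edgeR's adjusted p = 0.0356) rose.

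Of 32 signalling genes, 4 rose and 1 fell, against the same 3.47% of all genes. Those that rose were Nos3, the endothelial nitric oxide synthase gene (log2 fold change 1.54), Plcg2 (1.71), Prkcb (3.22) and Mapk3, which encodes the kinase ERK1 (0.97), and the Src family kinase gene Yes1 fell by 1.01, with edgeR's adjusted p = 0.00747 to 0.0379 over the 5. Of 18 feedback and response genes, Nr4a1 (1.80, edgeR's adjusted p = 0.0248) and Apln (4.33, edgeR's adjusted p = 0.0361) rose and none fell. In chronic CS none of the 71 passed in edgeR's quasi-likelihood test, with 5 higher and 7 lower at an unadjusted p under 0.05, against 10.9% of all genes. Mapk3 alone passed the test of the difference between the time points (1.44, edgeR's adjusted p = 0.0379), with 216.8 to 235 CPM in the chronic RA libraries and 140.7 to 188.4 CPM in the chronic CS libraries. This call was lost when any acute library other than acute CS M, any chronic RA library, chronic CS F or chronic CS M4 was left out (edgeR's adjusted p = 0.0511 to 0.195), and with sex as a covariate (edgeR's adjusted p = 0.0564).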

How the data were processed

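RNA of sorted LECs was sequenced in 12 libraries, grouped by the exposure and time point in their labels. The deposited values are raw read counts by Ensembl identifier, without normalization. To make them, the authors trimmed the reads, checked their quality, aligned them to GRCm38 with STAR and used its gene count mode. Which annotation release and strand setting were used is not given in the sources used here, so reads of overlapping genes may not be separable.

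GENCODE M21 was used for names, positions and exon lengths, and 147 identifiers with at most 0.011% of any library were not in it. The analysis was done in R 4.3.3 with edgeR 4.0.16 and DESeq2 1.42.0. All 12 libraries were fitted by group with TMM factors, the filter by expression and the quasi-likelihood F-test, and p-values were adjusted after Benjamini and Hochberg over 21440 genes with a limit of 0.05. They measure the spread between libraries, estimated jointly over all 12. Most of these are chronic libraries from 1 mouse each, so the acute p-values rest largely on the spread between those. The acute libraries are pools, and within each acute group the spread is also the difference between F and M. Correlations used log2 CPM with a prior count of 2, and the ratio of Kdr to Flt4 was compared by an exact permutation test. The fit was tested on simulated counts.

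Named genes are the 10 members, the genes of 4 pathway lists that passed, the 5 genes most correlated with each of 5 members, and cell type markers. The members and lists were chosen with earlier results of these data known. As alternatives, DESeq2, library size without TMM, no filter, a fit of only the groups compared, a sex covariate, a replicate block (same label within a time point), robust estimation and the omission of each library were tried, and the chronic CS group was split into F, M1 and M2 or M3 and M4. A floor of 3 counts is 0.0507 CPM in the deepest and 0.1575 CPM in the shallowest library.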

Additional observations from a re-analysis of the deposited data

Results flagged for a closer look

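Each of the 10 members was checked for a library that stood apart in chronic CS, the only group large enough, and 2 did. Ccbe1 in chronic CS M1 was at 1.85 CPM, from 42 counts, while chronic CS M3 had 25 counts and the other 3 had 0. Adamts3 in chronic CS F was at 1.1 CPM, from 21 counts, while the other 4 chronic CS libraries had 0 to 4 counts. Chance alone marks about 1 in 20 groups of continuous values, a rate that does not apply to these genes, for each of which 3 of the 5 libraries were at 0. The cause was not tested.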

How the results depend on the processing

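For the 8 members with a fold change, which leaves out Ccbe1 and Adamts3, the acute effects had the same direction under each alternative run. The acute call was lost 22 times, all of them for Vegfc, Flt1, Flt4, Nrp1 or Nrp2. The number of members called in acute CS was 5, and it was 6 with DESeq2 and 6 without the filter (Vegfa added), 0 with only the groups compared, 0 with a replicate block and 0 to 5 with 1 library left out, lowest without acute RA M. The number of genes called was 745, and it was 1961 with DESeq2, 144 with only the groups compared, 73 with the replicate block and 2 to 978 with 1 library left out. In chronic CS the number of genes called was 0, and it was 524 with DESeq2, 10 without the filter, 1 with chronic CS F, M1 and M2 only, 16 with M3 and M4 only and 0 to 4 with 1 library left out. DESeq2 called 2 members there. Between the RA groups the number of genes was 0, and it was 253 with DESeq2, 6 without the filter, 57 with only the groups compared and 0 to 2 with 1 library left out. For the difference between the CS effects the number of genes was 97, and it was 920 with DESeq2, 191 without the filter, 21 with sex as a covariate, 0 with the replicate block and 0 to 262 with 1 library left out. Members called there were 3 with DESeq2, 1 with library size only, 2 without the filter and 0 to 3 with 1 library left out. The causes were not tested.

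8 values changed sign under an alternative, none of them called. Vegfa between the RA groups was 0.0106 with sex as a covariate and -0.217 to 0.044 with 1 library left out. Kdr in chronic CS was 0.0409 with M3 and M4 only. With 1 library left out, the range was -0.00948 to 1.71 for the Vegfa difference between the CS effects and -0.458 to 0.0124 for that of Kdr, and between the RA groups -1.51 to 0.518 for Vegfc, -0.936 to 0.337 for Flt1 and -0.00251 to 0.41 for Nrp1. Libraries with the same label (sex in the acute groups, sex and number in the chronic groups) did not deviate together beyond a weak correlation. The 3 chronic pairs had r = -0.0419 to 0.0342, against -0.105 to 0.0693 for chronic pairs with different labels. With 2 libraries per acute group the deviations mirror each other, so the acute pairs give 1 value only (r = 0.0693 for the same label and -0.0693 otherwise). The labels name no shared litter, batch or day. With the replicate block, which in the acute groups is a block of sex, edgeR's adjusted p of the 5 acute calls was 0.0526 to 0.145, none of the 12 pathway genes called in acute CS passed, and Mapk3 did not pass in the difference between the CS effects (adjusted p = 0.146). No block could be fitted between the RA groups, because the blocks lie within a time point. Low counts limit what can be said of Ccbe1 and Adamts3.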
